A study of Mus musculus with 24 samples.

Results

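The genes followed here belong to the muscle surface membrane, measured in cultured mouse muscle: the caveolins Cav1, Cav2, and Cav3, the cavins Cavin1, Cavin2, and Cavin4, the T-tubule genes Bin1 and Mtm1, and the ferlins Dysf and Myof. They were selected by gene symbol, and all 10 were found among the 56941 genes of the count and TPM (a length-normalized level) tables. The rule used no measured value, but the genes were chosen with earlier results of these data known. All 10 were also among the 13318 genes that passed the filter on low counts. The tissues were C2C12 muscle, which is a mouse myoblast line that fuses into contracting fibers, of the genotype ChR2::tdTomato. Every tissue, controls included, therefore carried channelrhodopsin, a blue light-gated ion channel fused to a red fluorescent protein. Muscle sheets on fibrin hydrogels received light for 30 min each day at 1, 4, or 10 Hz during differentiation with horse serum and IGF-1, or were left unstimulated as control. Bulk RNA sequencing was done on 6 biological replicates per condition, giving 24 libraries. RNA was taken after the same span of differentiation in every group, and the cultures were made from 1 cell line.

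Caveolae are flask-shaped pits of the surface membrane that flatten when the membrane is stretched. Caveolins form their membrane-embedded scaffold and cavins their outer coat, and muscle fibers use the muscle caveolin Cav3 and the muscle-enriched cavin Cavin4 beside the widely expressed members. In developing muscle, caveolin-rich membrane and the membrane-curving protein Bin1 take part in the growth of T-tubules, the inward tubes that carry the action potential to the calcium stores. The ferlins bind calcium and membranes and act in resealing torn membrane and in the fusion of myoblasts.

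The promoters of Cav3, Cavin2, and Cavin4 are shown because these 3 genes passed the test in the same direction at both 4 and 10 Hz. Each sequence is the 250 bases before the start of the canonical transcript, read 5′ to 3′ on the plus strand of GRCm39. Capitals mark E-boxes, the CANNTG motif bound by MyoD, myogenin, and many other factors. They span chr6:112436216-112436465, chr1:51328016-51328265, and chr4:48663253-48663502.
Cav3: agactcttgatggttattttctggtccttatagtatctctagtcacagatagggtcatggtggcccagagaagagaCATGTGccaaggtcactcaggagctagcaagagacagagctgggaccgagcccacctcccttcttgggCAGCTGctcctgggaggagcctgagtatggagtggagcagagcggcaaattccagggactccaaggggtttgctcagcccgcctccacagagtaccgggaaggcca
Cavin2: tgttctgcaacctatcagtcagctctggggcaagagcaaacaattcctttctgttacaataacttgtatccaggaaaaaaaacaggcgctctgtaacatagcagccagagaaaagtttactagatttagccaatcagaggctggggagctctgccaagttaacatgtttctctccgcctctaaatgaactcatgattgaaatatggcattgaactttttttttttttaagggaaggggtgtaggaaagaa
Cavin4: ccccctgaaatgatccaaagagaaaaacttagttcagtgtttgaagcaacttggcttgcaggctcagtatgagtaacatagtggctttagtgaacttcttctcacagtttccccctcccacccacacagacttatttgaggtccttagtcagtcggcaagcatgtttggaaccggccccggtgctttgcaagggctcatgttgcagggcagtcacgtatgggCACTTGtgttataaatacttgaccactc

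Cav3 held 2 E-boxes, starting 174 and 106 bases before the transcript start, of which the nearer reads CAGCTG. Cavin4 held 1, starting 28 bases before the transcript start, and Cavin2 held none. A CANNTG match on either strand was present in 64.8% of the 21770 promoters of protein-coding genes in the same annotation and in 59.8% of those of the genes tested. CAGCTG, which is a kind of CANNTG, was present in 11.9% and 11.2%. The letters TATAAA, searched on both strands, were found in Cavin4 and Cav1 among the members, in 11.9% of all promoters, and in 7.22% of those of tested genes. The GC box GGGCGG, searched on both strands, was present in Cav2 and Mtm1 among the members, in 36.3% of all promoters, and in 49.9% of those of tested genes. A MEF2 site, searched on both strands, was found at 2 places in Dysf, starting 174 and 162 bases before the transcript start, in 2.79% of all promoters, and in 2.10% of those of tested genes. The letters CACCTG, another kind of E-box, were on neither strand of the 10 members, in 17.7% of all promoters, and in 16.1% of those of tested genes. The same held for the muscle motif CATTCC (12.1% and 11.7%) and for a CArG box (1.40% and 1.18%). GC content of the 3 printed sequences was 56.0% for Cav3, 40.4% for Cavin2, and 48.0% for Cavin4, beside a median of 53.2% over all promoters.

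The genes lie on separate chromosomes apart from 4 members of chromosome 6. In GRCm39 (GENCODE M39 annotation), Cav2 (ENSMUSG00000000058) lies at chr6:17281026-17289877 and Cav1 (ENSMUSG00000007655) next to it at chr6:17306140-17341451. Dysf (ENSMUSG00000033788) lies at chr6:83985345-84188042 and Cav3 (ENSMUSG00000062694) at chr6:112436466-112449833, also on the plus strand. Cavin2 (ENSMUSG00000045954) is at chr1:51328266-51345710 and Cavin4 (ENSMUSG00000028348) at chr4:48663503-48674045, on the plus strand. Bin1 (ENSMUSG00000024381) is at chr18:32509621-32571547 and Mtm1 (ENSMUSG00000031337) at chrX:70254373-70359297, on the plus strand. Cavin1 (ENSMUSG00000004044) at chr11:100847559-100861713 and Myof (ENSMUSG00000048612) at chr19:37887484-38032048 lie on the minus strand. Exons of Cav1, Cav2, Cavin1, Cavin2, Bin1, and Dysf overlap those of a long noncoding RNA on the opposite strand by 89 to 898 bases. The kit kept strand, but the sources used here do not say whether the counting used it, so for these 6 genes reads of the partner cannot be told apart.

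Libraries held 4085578 to 15194554 counts in total, with a median of 7481117. The lowest count of a member in any library was 52 (Mtm1), and the other 9 members had at least 143 counts in every library. Non-polyadenylated small RNAs, taken as the raw-total CPM (the library-size scaled count) of 20 listed symbols, stood apart by condition. Control libraries lay between 98.4 and 169 CPM, those at 1 Hz between 15.5 and 70.0, those at 4 Hz between 18.3 and 50.9, and those at 10 Hz between 38.4 and 273 CPM. No library at 1 or 4 Hz reached the lowest control (2-sided exact permutation p = 0.00216 each, the smallest that 6 against 6 allow, BH adjusted p = 0.00649 over 12 tests of composition), so this share and the stimulation cannot be told apart in these comparisons. Of the 5 small RNA genes that passed the filter, 3 fell at 1 Hz, 2 fell at 4 Hz, and 0 were called at 10 Hz by edgeR (0 at an unadjusted p below 0.05). The labels state that low-input samples were ribodepleted and do not name them.

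Myotube markers matched the label of the tissue. The summed TPM of 8 of them (Acta1, Mylpf, Tnnt3, and others) was 7221 to 9220 in control, 11700 to 15240 at 1 Hz, 11470 to 16940 at 4 Hz, and 7433 to 12460 at 10 Hz. Of the 8, 6 rose at 1 Hz, 6 at 4 Hz, and 2 at 10 Hz. The summed level differed without overlap at 1 Hz and at 4 Hz (exact permutation p = 0.00216, BH adjusted p = 0.00649 each). At 10 Hz it overlapped control and did not pass (exact permutation p = 0.0563, BH adjusted p = 0.0965). Endothelial markers, of interest because endothelium is rich in Cav1, summed to 0 to 0.855 TPM, and Tie1 was listed at 0 in all 24 libraries. Of 6 adipocyte markers, Pparg alone passed the filter, and Plin1 and Lep were listed at 0 in 21 and 20 libraries. In edgeR Pparg was called in 0 of the 3 comparisons with control (an unadjusted p below 0.05 in 1). At 1 Hz Pparg was higher but under the fold threshold (0.41, edgeR adjusted p = 0.00311). Fibroblast markers (5 genes) summed to 28.7 to 65.6 TPM in control and 29.0 to 35.3 TPM at 4 Hz (exact permutation p = 0.0195, BH adjusted p = 0.0468). The highest control was replicate 6, the next being 42.4 TPM. The sums did not pass at 1 Hz (exact permutation p = 0.946, BH adjusted p = 0.946) or 10 Hz (exact permutation p = 0.258, BH adjusted p = 0.386). Lum was at 0 in 18 libraries, and of the 3 fibroblast markers tested 1 (Dcn) fell at 4 Hz. The summed TPM of 5 proliferation markers was 32.2 to 50.7 in control, 27.3 to 32.5 at 1 Hz, 21.2 to 38.7 at 4 Hz, and 28.8 to 37.0 at 10 Hz. In edgeR, Mki67 and Top2a rose at 4 Hz, while Cdk1, the most abundant of the 5, was lower there but under the fold threshold (-0.38, edgeR adjusted p = 0.0260), with 0 of 5 called at 1 Hz (2 at an unadjusted p below 0.05) and 0 at 10 Hz (0 at an unadjusted p below 0.05).

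The first question was which members differed between stimulated tissue and control. A gene was called at a Benjamini-Hochberg adjusted p below 0.05 (edgeR quasi-likelihood test over all 13318 genes) with a log2 fold change beyond 0.5 either way, and "rose" and "fell" are used for such genes only. At 1 Hz, 3 of 10 members rose (Cav1, Cav3, and Cavin2) and 0 fell, where 9.34% of all genes tested rose and 8.99% fell. At 4 Hz, 4 of 10 rose (Cav3, Cavin2, Cavin4, and Mtm1) and 1 fell (Myof), where 10.5% of all genes rose and 9.61% fell. At 10 Hz, 3 of 10 rose (Cav3, Cavin2, and Cavin4) and 0 fell, where 1.24% of all genes rose and 0.623% fell. The median log2 fold change of the 10 members was 0.35 at 1 Hz, 0.43 at 4 Hz, and 0.12 at 10 Hz, beside medians over all genes of -0.01, -0.01, and -0.01. All 6 libraries lay above every control for 2 of 10 members at 1 Hz (Cav3 and Dysf), 4 at 4 Hz (Cav3, Cavin2, Cavin4, and Dysf), and 1 at 10 Hz (Cavin2), where this held for 7.22%, 8.68%, and 1.28% of all genes. All 6 lay below every control for 1 member at 4 Hz (Myof), where this held for 7.93% of all genes. The 3 comparisons share the 6 control libraries. A difference in these bulk libraries can come from the number of cells of a type or from the RNA per cell, which cannot be told apart.

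**Figure D1:**
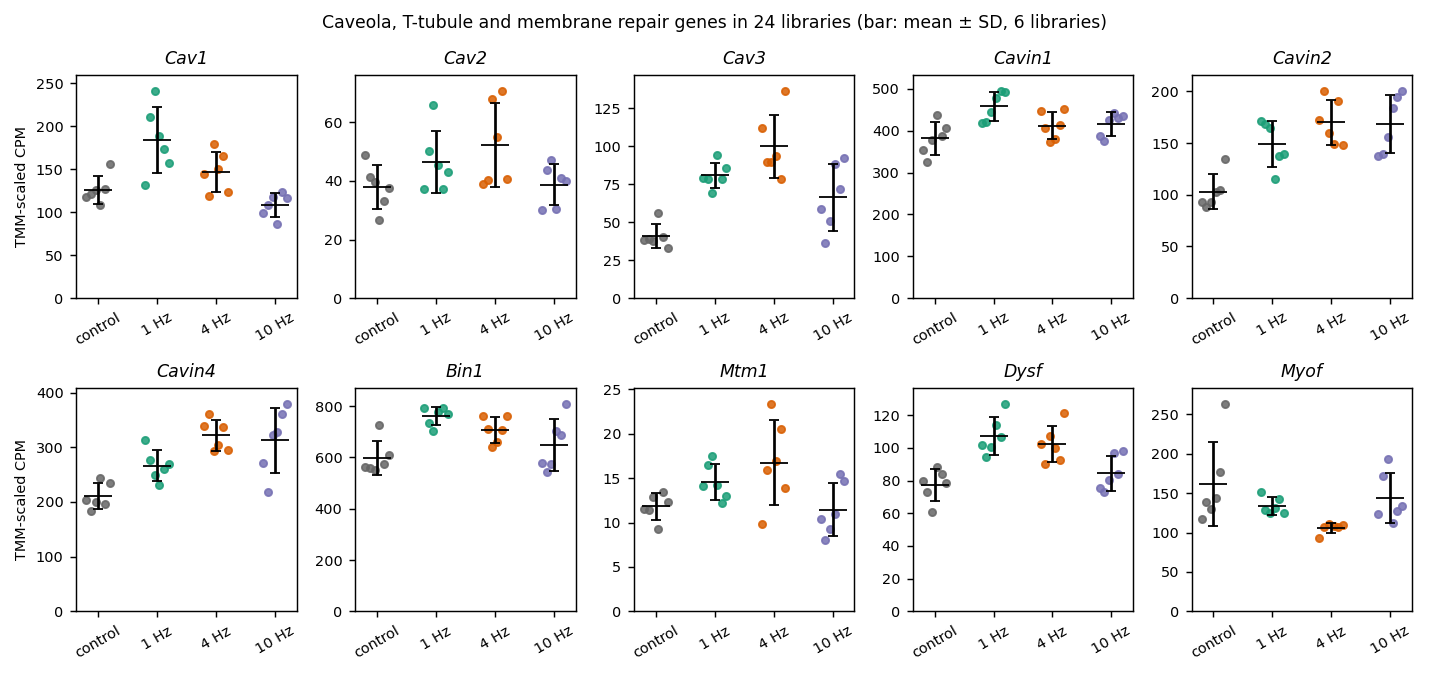
TMM-scaled CPM (y axis, from 0) of the 10 genes in each of 24 libraries by condition (x axis, control in gray, 1 Hz green, 4 Hz orange, 10 Hz purple), with the mean ± SD of 6 libraries in black. Cav3 at 1 Hz (68.9 to 94.1 CPM) and 4 Hz (78.3 to 136 CPM) sits above every control library (32.9 to 55.9 CPM), and Myof at 4 Hz (92.8 to 111 CPM) sits below every control library (117 to 262 CPM).

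**Figure D2:**
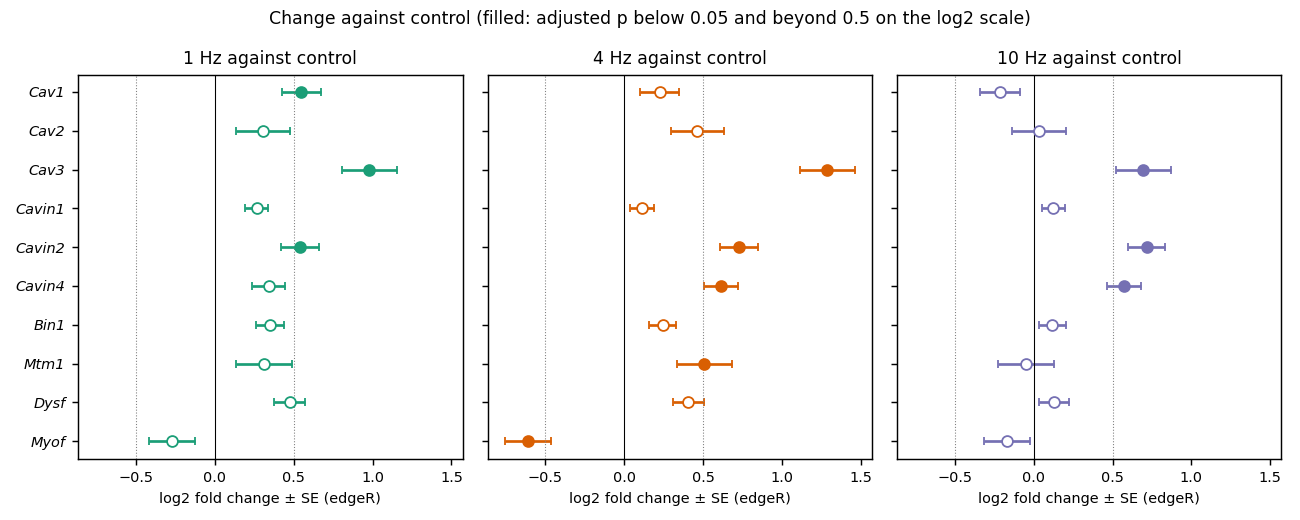
Log2 fold change against control with its standard error (x axis, edgeR) for the 10 genes (y axis) at 1, 4, and 10 Hz. Filled points were called, dotted lines mark 0.5 either way, and Cav3 and Cavin2 are filled and positive in all 3 panels.

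Cav3, the muscle caveolin, had the largest log2 fold change of the 10 members at 1 and at 4 Hz. Cav3 lay between 32.9 and 55.9 CPM in control (median 38.8 CPM), between 68.9 and 94.1 CPM at 1 Hz (median 78.9 CPM), between 78.3 and 136 CPM at 4 Hz (median 91.6 CPM), and between 36.0 and 92.2 CPM at 10 Hz (median 65.3 CPM). No library at 1 or 4 Hz overlapped control. At 10 Hz 4 of 6 libraries lay above every control, while replicates 2 and 3 lay within the control range. Mean levels rose from 40.75 ± 7.84 CPM in control to 80.8 ± 8.425 at 1 Hz, 99.9 ± 20.9 at 4 Hz, and 66.3 ± 22.0 at 10 Hz (mean ± SD over 6 libraries). The log2 fold change was 0.98 ± 0.17 at 1 Hz (SE, edgeR adjusted p = 0.000145), 1.29 ± 0.17 at 4 Hz (SE, edgeR adjusted p = 3.94e-06), and 0.69 ± 0.17 at 10 Hz (SE, edgeR adjusted p = 0.0194). The 10 Hz call was lost without 10 Hz replicate 4 (0.60, edgeR adjusted p = 0.0611), without replicate 6 (0.58, edgeR adjusted p = 0.0621), in a fit of only the 12 libraries compared (0.70, edgeR adjusted p = 0.0592), and by limma on TPM (0.53, adjusted p = 0.0840). The 10 Hz replicate 2, lowest in Cav3, had the highest small RNA share of all libraries (273 CPM), and the 4 Hz replicate 6, highest in Cav3, had the highest summed myotube markers (16940 TPM). The part of either in the Cav3 differences was not tested.

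Cav1, the caveolin of most cell types, had its highest levels at 1 Hz. It ranged from 108 to 156 CPM in control (median 124 CPM), from 132 to 241 CPM at 1 Hz (median 181 CPM), from 119 to 179.5 CPM at 4 Hz (median 148 CPM), and from 86.4 to 124 CPM at 10 Hz (median 112 CPM). At 1 Hz 5 of 6 libraries exceeded every control, and the log2 fold change was 0.55 ± 0.12 (SE, edgeR adjusted p = 0.00142). The highest of them was 1 Hz replicate 3, the deepest library at 15194554 counts, and without it the value was 0.45 (edgeR adjusted p = 0.00585), inside the fold threshold, as with total-count scaling (0.47). The differences at 4 Hz (0.22 ± 0.12, SE, edgeR adjusted p = 0.157) and 10 Hz (-0.21 ± 0.13, SE, edgeR adjusted p = 0.347) did not pass the test.

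Cav2, which needs Cav1 to reach the cell surface, was the least abundant caveolin and was not called against control. Its mean was 37.9 ± 7.55 CPM in control, 46.5 ± 10.7 at 1 Hz, 52.2 ± 14.5 at 4 Hz, and 38.8 ± 7.04 at 10 Hz (mean ± SD over 6 libraries). At 4 Hz it differed by 0.46 ± 0.17 on the log2 scale (SE, edgeR adjusted p = 0.0326), under the fold threshold, which was passed without control replicate 1 or 2 (0.56 and 0.51) or without 4 Hz replicate 1, 2, or 6 (0.54, 0.53, and 0.54). At 4 Hz 3 libraries, at 55.1, 67.8, and 70.7 CPM, lay above every control while the other 3 did not.

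Cavin2, a coat subunit found in many tissues, was called at every frequency, as was Cav3. Cavin2 ranged from 88.1 to 135 CPM in control (median 98.1 CPM), from 115 to 171 CPM at 1 Hz (median 152 CPM), from 148 to 200 CPM at 4 Hz (median 166 CPM), and from 137 to 200.3 CPM at 10 Hz (median 170.1 CPM). Every library at 4 and 10 Hz exceeded every control, and 5 of 6 did so at 1 Hz. The log2 fold change was 0.54 ± 0.12 at 1 Hz (SE, edgeR adjusted p = 0.00108), 0.73 ± 0.12 at 4 Hz (SE, edgeR adjusted p = 3.98e-05), and 0.72 ± 0.12 at 10 Hz (SE, edgeR adjusted p = 0.000942). The control replicate 6 was the highest control for Cavin2 at 135 CPM, the next being 104.5 CPM. The 1 Hz call was lost with total-count scaling (0.47) and by limma on TPM (0.47 to 0.48).

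Cavin4, the muscle-enriched cavin, rose at 4 and 10 Hz. It ranged from 183 to 245 CPM in control (median 201 CPM), from 230.5 to 313 CPM at 1 Hz (median 265 CPM), from 293 to 362 CPM at 4 Hz (median 321 CPM), and from 218 to 378 CPM at 10 Hz (median 325 CPM). The 4 Hz libraries did not overlap control, and at 10 Hz replicate 2 alone lay inside the control range. The log2 fold change was 0.61 ± 0.11 at 4 Hz (SE, edgeR adjusted p = 7.30e-05) and 0.57 ± 0.11 at 10 Hz (SE, edgeR adjusted p = 0.00235). At 1 Hz it was 0.34 ± 0.11 (SE, edgeR adjusted p = 0.0142), under the fold threshold. By limma on TPM the values stayed under it as well, at 0.43 for 4 Hz and 0.45 for 10 Hz.

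Cavin1, the subunit that all caveola coats contain, was called in no comparison. Its mean was 382 ± 39.2 CPM in control, 458 ± 34.75 at 1 Hz, 412.5 ± 32.3 at 4 Hz, and 416 ± 27.8 at 10 Hz (mean ± SD over 6 libraries). The largest of its differences from control was 0.26 ± 0.07 at 1 Hz (SE, edgeR adjusted p = 0.00756), with 4 of 6 libraries above every control.

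Of the T-tubule genes, Bin1, which bends membrane into tubes, was the most abundant of the 10 members. Bin1 ranged from 552 to 726 CPM in control (median 567 CPM), from 702 to 793 CPM at 1 Hz (median 773 CPM), from 640.1 to 762 CPM at 4 Hz (median 709 CPM), and from 542 to 806 CPM at 10 Hz (median 633 CPM). Its differences of 0.35 ± 0.09 on the log2 scale at 1 Hz (SE, edgeR adjusted p = 0.00289) and 0.24 ± 0.09 at 4 Hz (SE, edgeR adjusted p = 0.0278) stayed under the fold threshold, and control replicate 4, at 726 CPM, lay inside the 1 Hz range.

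Mtm1, a phosphoinositide phosphatase that acts with Bin1 in muscle membranes, was the least abundant member. It ranged from 9.27 to 13.5 CPM in control (median 11.9 CPM), from 12.2 to 17.5 CPM at 1 Hz (median 14.2 CPM), from 9.885 to 23.3 CPM at 4 Hz (median 16.45 CPM), and from 7.99 to 15.5 CPM at 10 Hz (median 10.7 CPM). At 4 Hz 5 of 6 libraries exceeded every control, and the log2 fold change was 0.51 ± 0.17 (SE, edgeR adjusted p = 0.0214). This call was lost without control replicate 4 (0.44, edgeR adjusted p = 0.0558), without 4 Hz replicate 3 (0.40, edgeR adjusted p = 0.0722), and without 4 Hz replicate 5 (0.45, edgeR adjusted p = 0.0503), and it was also lost with total-count scaling (0.41), apeglm (0.44), and limma on TPM (0.22). The differences at 1 Hz (0.31 ± 0.18, SE, edgeR adjusted p = 0.173) and 10 Hz (-0.05 ± 0.18, SE, edgeR adjusted p = 0.920) did not pass the test.

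Of the ferlins, Myof fell at 4 Hz and Dysf stayed under the fold threshold. Dysf (dysferlin), the ferlin of mature fibers whose loss causes a muscular dystrophy, ranged from 60.6 to 88.3 CPM in control (median 79.4 CPM), from 94.7 to 127 CPM at 1 Hz (median 104 CPM), from 90.35 to 121.5 CPM at 4 Hz (median 101 CPM), and from 72.9 to 98.1 CPM at 10 Hz (median 82.0 CPM). Every library at 1 and 4 Hz exceeded every control. Its log2 fold change was 0.48 ± 0.10 at 1 Hz (SE, edgeR adjusted p = 0.000556), past the fold threshold without control replicate 4 (0.52) or 1 Hz replicate 2 (0.51), and 0.41 ± 0.10 at 4 Hz (SE, edgeR adjusted p = 0.00175).

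Myof (myoferlin), the ferlin that is prominent in fusing myoblasts, was the only member that fell against control. It ranged from 117 to 262 CPM in control (median 141.5 CPM), from 124 to 151 CPM at 1 Hz (median 129 CPM), from 92.8 to 111 CPM at 4 Hz (median 107.5 CPM), and from 112.5 to 194 CPM at 10 Hz (median 130.3 CPM). All 6 libraries at 4 Hz lay below every control and below every 1 Hz library, and 3.33% of all genes separated from 1 Hz in that way. At 4 Hz the level fell by 0.61 ± 0.15 on the log2 scale (SE, edgeR adjusted p = 0.00174). Control replicate 6, at 262 CPM, stood above the next control at 177 CPM, and it also had the highest sums of fibroblast markers (65.6 TPM), of reserve cell markers (74.2 TPM over 5 genes), and of small RNA (169 CPM) among the controls. Without it Myof was -0.42 at 4 Hz (edgeR adjusted p = 0.00622), inside the fold threshold. Leaving out the highest control could not change the separation of the 4 Hz libraries from the lowest control. Summed reserve cell markers were 39.3 to 74.2 TPM in control and 37.9 to 46.8 TPM at 4 Hz (exact permutation p = 0.0390, BH adjusted p = 0.0779), with 1 of 5 markers lower (Myf5) and 1 higher (Pax7). Their part in the Myof difference was not tested.

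When the log2 share of small RNA was added as a covariate, the members called were 0 at 1 Hz (1 at an unadjusted p below 0.05), 0 at 4 Hz (3 at an unadjusted p below 0.05), and 3 at 10 Hz, in edgeR. Cav3 then had a log2 fold change of 0.46 at 1 Hz (edgeR adjusted p = 0.517), 0.77 at 4 Hz (edgeR adjusted p = 0.0891), and 0.58 at 10 Hz (edgeR adjusted p = 0.0343). Cavin2 at 10 Hz was 0.69 (edgeR adjusted p = 0.00202) and Cavin4 at 10 Hz 0.53 (edgeR adjusted p = 0.00452), near the values without the covariate. Mean small RNA was 125 CPM at 10 Hz and 131 CPM in control, and the medians were 96.2 and 133.6 CPM. The covariate was on the log2 scale, so the arithmetic means do not show how much it had to adjust there. Within 10 Hz, replicate 2, with the highest share (273 CPM), had the lowest Cavin4 (218 CPM). Replicate 6, with the lowest share (38.4 CPM), had the highest Cavin4 (378 CPM) and Cavin2 (200.3 CPM). The part of composition in the 10 Hz cavin levels was not tested. Over all genes this fit called 1 higher and 0 lower at 1 Hz (1418 at an unadjusted p below 0.05), 150 higher and 96 lower at 4 Hz, and 122 higher and 81 lower at 10 Hz, in place of 1244 and 1197, 1396 and 1280, and 165 and 83.

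**Figure D3:**
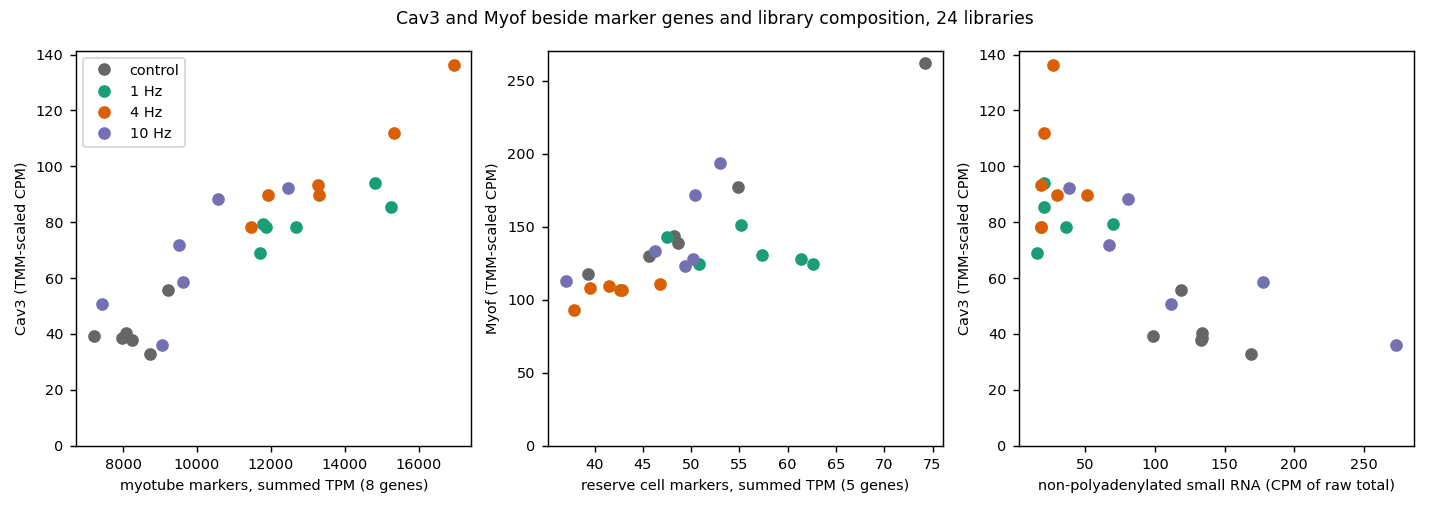
Each point is 1 of 24 libraries, colored by condition. The panels plot Cav3 (CPM) against the summed TPM of 8 myotube markers, Myof (CPM) against the summed TPM of 5 reserve cell markers, and Cav3 against the small RNA share (CPM of the raw total), with y axes from 0. Control replicate 6 is the point at 262 CPM of Myof and 74.2 TPM, and 10 Hz replicate 2 is the point at 273 CPM of small RNA.

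The next question was whether frequencies differed from each other. Between 4 and 1 Hz edgeR called 0 of 10 members (3 at an unadjusted p below 0.05), DESeq2 0 (4 at an unadjusted p below 0.05), and limma on TPM 1 (Cav1, lower, -0.56), where edgeR called 1.59% of all genes higher and 1.40% lower. The values closest to a call were -0.32 ± 0.12 for Cav1 (SE, edgeR adjusted p = 0.0834), 0.27 ± 0.11 for Cavin4 (SE, edgeR adjusted p = 0.0882), and -0.34 ± 0.15 for Myof (SE, edgeR adjusted p = 0.130). Between 10 and 1 Hz 1 of 10 members was lower (Cav1) and 0 higher, where 9.45% of all genes were higher and 8.49% lower. All 6 Cav1 libraries at 10 Hz lay below all 6 at 1 Hz, as did 7.49% of all genes, by -0.76 ± 0.12 (SE, edgeR adjusted p = 4.94e-05), and this call held whichever library was left out. With the small RNA covariate it was -0.63 (edgeR adjusted p = 0.0656). Dysf (-0.35 ± 0.10, SE, edgeR adjusted p = 0.00655) and Bin1 (-0.23 ± 0.09, SE, edgeR adjusted p = 0.0386) were under the fold threshold.

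Between 10 and 4 Hz 2 of 10 members were lower (Cav3 and Mtm1) and 0 higher, where 5.32% of all genes were higher and 5.64% lower. Cav3 differed by -0.59 ± 0.17 (SE, edgeR adjusted p = 0.0123) and Mtm1 by -0.55 ± 0.17 (SE, edgeR adjusted p = 0.0189), both with overlapping libraries. Without 10 Hz replicate 2 neither was called, with Cav3 at -0.47 (edgeR adjusted p = 0.0324) and Mtm1 at -0.48 (edgeR adjusted p = 0.0554). Without 4 Hz replicate 6 Cav3 was -0.50 (edgeR adjusted p = 0.0375), and Mtm1 was -0.45 (edgeR adjusted p = 0.0628) without 4 Hz replicate 3 and -0.50 (edgeR adjusted p = 0.0506) without 10 Hz replicate 3. The Mtm1 call was also lost with total-count scaling (-0.49), in a fit of only the 12 libraries (-0.55, edgeR adjusted p = 0.0602), with apeglm (-0.46), and by limma on TPM (-0.38 to -0.45). Cav1 was lower at 10 Hz by -0.44 ± 0.12 (SE, edgeR adjusted p = 0.0128), under the fold threshold, which it passed by limma on TPM (-0.54 to -0.55), and 5 of 6 libraries lay below every 4 Hz library. Myof at 10 Hz lay above every 4 Hz library, as did 2.67% of all genes, by 0.44 ± 0.15 (SE, edgeR adjusted p = 0.0287), under the fold threshold, which it passed with total-count scaling (0.504) and without 10 Hz replicate 4 (0.502). Cavin2 (-0.01 ± 0.12, SE, edgeR adjusted p = 0.956) and Cavin4 (-0.04 ± 0.11, SE, edgeR adjusted p = 0.816) were not separated between 10 and 4 Hz. By mean CPM the order for Cav3 was 4 Hz, 1 Hz, 10 Hz, control. The differences between the neighbors 4 and 1 Hz (0.31, edgeR adjusted p = 0.239) and 1 and 10 Hz (-0.28, edgeR adjusted p = 0.188) were not called. For Cav1 the order was 1 Hz, 4 Hz, control, 10 Hz, with no called difference between neighbors.

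Levels of different genes were compared as TPM, which is per transcript length. In control tissue the order of mean TPM was Bin1 (530.2 ± 68.6), Cavin1 (167 ± 17.3), Cavin4 (161 ± 19.25), Cav1 (95.45 ± 16), Cav3 (59.3 ± 11.3), Cavin2 (51.4 ± 9.20), Myof (44.6 ± 19.6), Cav2 (21.9 ± 3.455), Dysf (20.3 ± 2.53), and Mtm1 (5.34 ± 0.609), each as mean ± SD over 6 libraries. The neighbors Cavin1 and Cavin4, Cav3 and Cavin2, Cavin2 and Myof, and Cav2 and Dysf lay within 1 SD of each other.

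Within the caveolin pool, the share of TPM held by Cav3 was 28.9 to 41.3% in control (mean 33.6%), 27.2 to 43.8% at 1 Hz (mean 35.2%), 40.3 to 50.3% at 4 Hz (mean 45.5%), and 30.6 to 54.1% at 10 Hz (mean 45.0%). At 1 Hz Cav1 and Cav3 were both high, so the pool was larger, at 323 ± 35.9 TPM against 177 ± 22.2 TPM in control, with Cav3 shares that overlapped control. This pool size and these shares depend on the TPM scale, since Cav1 at 1 Hz was 1.94 of control as TPM and 1.46 as CPM. At 4 Hz the pool was 277.5 ± 37.2 TPM with the larger Cav3 share, and at 10 Hz it was 194.5 ± 32.0 TPM. The cavin pool was the sum of Cavin1, Cavin2, and Cavin4, without Cavin3, which was at 11.6 to 27.55 TPM over all libraries. Within this pool Cavin1 held 41.9 to 45.7% in control and 32.5 to 40.1% at 4 Hz, without overlap. Cavin4 held 40.3 to 43.7% in control and 45.05 to 49.6% at 4 Hz. Of the ferlin pool, Dysf held 18.9 to 42.7% in control and 43.5 to 52.9% at 4 Hz, without overlap, while the pool was 64.9 ± 19.8 TPM and 47.9 ± 4.10 TPM. As TPM each ferlin overlapped control. Dysf was 18.15 to 25.2 TPM in control and 19.75 to 28.8 TPM at 4 Hz. Myof was 26.0 to 82.1 TPM in control and 22.6 to 26.2 TPM at 4 Hz. These shares are a description and were not tested.

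**Figure D4:**
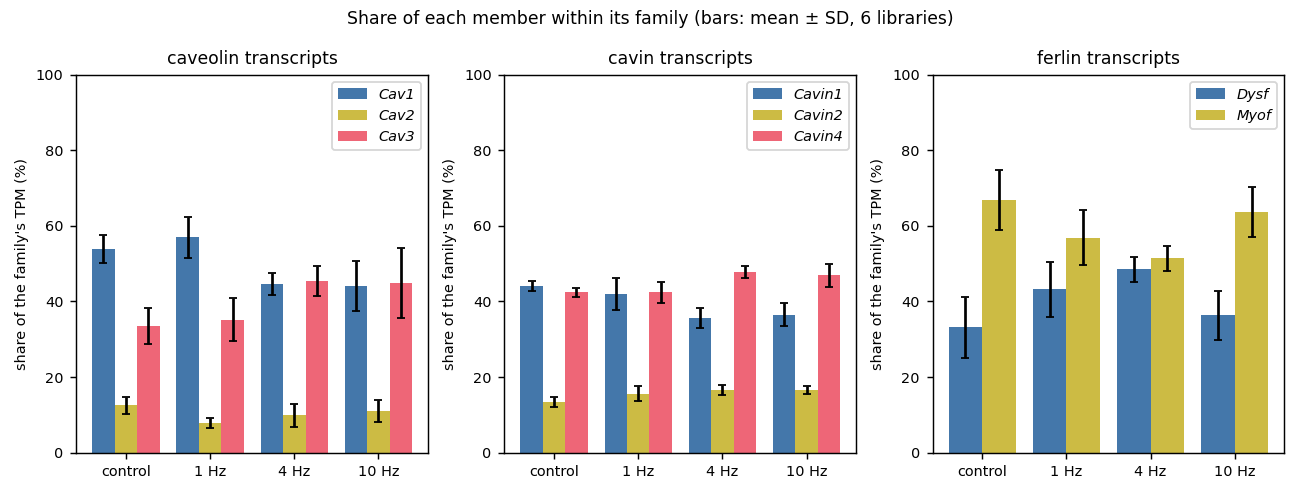
Share of each member in the summed TPM of the members of its family (y axis, %, from 0 to 100) by condition (x axis). Bars show the mean and lines the SD of 6 libraries. The cavin panel leaves out Cavin3. Cav3 goes from 33.6% in control to 45.5% at 4 Hz, and Dysf from 33.1% to 48.55%.

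TPM and CPM gave different sizes for Cav1. At 1 Hz its mean over control was 1.94 as TPM and 1.46 as CPM. The ratio of count to TPM, calibrated on genes with 1 transcript, gives the mean transcript length that the quantification assigned in a library, a check added after the values were seen. For Cav1 this length was 2061 ± 385 bases in control and 1472 ± 237 bases at 1 Hz (SD, n = 6 each), a log2 ratio of -0.48 ± 0.16 (SE) that did not pass the test (limma adjusted p = 0.234 over 10443 genes with several transcripts). It was -0.35 ± 0.16 at 4 Hz (SE, limma adjusted p = 0.405) and -0.15 ± 0.16 at 10 Hz (SE, limma adjusted p = 0.857). Of 9 members with several transcripts limma called 0 at 1 Hz, 0 at 4 Hz, and 0 at 10 Hz (2, 3, and 1 at an unadjusted p below 0.05), where 0.211%, 0.546%, and 0% of all such genes were called at an adjusted p below 0.05. Cavin2 was assigned 3061 to 3063 bases in all 24 libraries, near its M39 transcript of 3069 bases and shorter than the canonical one of 6665 bases. Cavin4, with 1 transcript of 2608 bases in M39, was assigned a mean of 2002 bases in control. The assigned lengths therefore need not match those of this annotation.

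The other genes of the same structures were taken from 3 lists written from general knowledge. Over all genes tested, 9.34% rose and 8.99% fell at 1 Hz, 10.5% rose and 9.61% fell at 4 Hz, and 1.24% rose and 0.623% fell at 10 Hz, so the called shares of these lists were near or below those of all genes, except for the T-tubule list (3 of 13 at 1 Hz and 2 of 13 at 4 Hz). Of 11 caveola and raft partners tested, 1 rose at 1 Hz and 0 fell, 1 rose and 1 fell at 4 Hz, and 0 were called at 10 Hz by edgeR (2 at an unadjusted p below 0.05). The gene that rose at 1 Hz was Ehbp1, a binding partner of the EHD proteins, from 11.9 ± 1.82 to 18.7 ± 3.79 CPM (SD, n = 6, log2 fold change 0.66, edgeR adjusted p = 0.00141). At 4 Hz Pacsin3, a membrane-curving protein of muscle caveolae, rose from 113 ± 18.95 to 169.8 ± 22.1 CPM (0.59, edgeR adjusted p = 0.000695), and Ehd3 fell from 18.8 ± 3.07 to 13.1 ± 1.52 CPM (-0.51, edgeR adjusted p = 0.00192). The median of this list was 0.09 at 1 Hz, -0.01 at 4 Hz, and 0.01 at 10 Hz on the log2 scale.

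Of 13 genes of T-tubule and triad shape, 3 rose at 1 Hz, 2 rose at 4 Hz, and 0 were called at 10 Hz by edgeR (0 at an unadjusted p below 0.05), and none fell against control. Jph2, which ties the T-tubule to the calcium store, rose from 219 ± 41.0 CPM to 406 ± 70.9 CPM at 1 Hz (0.89, edgeR adjusted p = 0.000109) and to 359 ± 60.3 CPM at 4 Hz (0.72, edgeR adjusted p = 0.000669). Tcap, a Z-disc protein that caps titin, rose from 9.93 ± 1.49 CPM to 18.0 ± 4.78 CPM at 1 Hz (0.87, edgeR adjusted p = 0.00720) and 25.2 ± 8.78 CPM at 4 Hz (1.35, edgeR adjusted p = 9.78e-05). At 10 Hz the values were 0.18 for Jph2 (edgeR adjusted p = 0.551) and 0.13 for Tcap (edgeR adjusted p = 0.829). The list median was 0.16 at 1 Hz, 0.05 at 4 Hz, and -0.10 at 10 Hz.

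Of 21 membrane repair partners tested, 2 rose at 1 Hz, 1 rose at 4 Hz, and 0 were called at 10 Hz by edgeR (4 at an unadjusted p below 0.05), and none fell against control. Trim72 (MG53), which nucleates the repair patch together with dysferlin and Cav3, rose from 121 ± 18.2 CPM to 194.5 ± 25.7 CPM at 1 Hz (0.68, edgeR adjusted p = 0.000157) and 212 ± 28.9 CPM at 4 Hz (0.81, edgeR adjusted p = 1.52e-05), and was 160.2 ± 32.5 CPM at 10 Hz (0.40, edgeR adjusted p = 0.0527). Ano5, a muscle membrane protein whose loss causes a muscular dystrophy, rose at 1 Hz from 7.39 ± 2.04 to 10.8 ± 1.99 CPM (0.55, edgeR adjusted p = 0.0422). The remaining 19 at 1 Hz and 20 at 4 Hz, which include the annexins and calpains, were not called, and the list median was 0.17 at 1 Hz, 0.07 at 4 Hz, and 0.01 at 10 Hz.

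**Figure D5:**
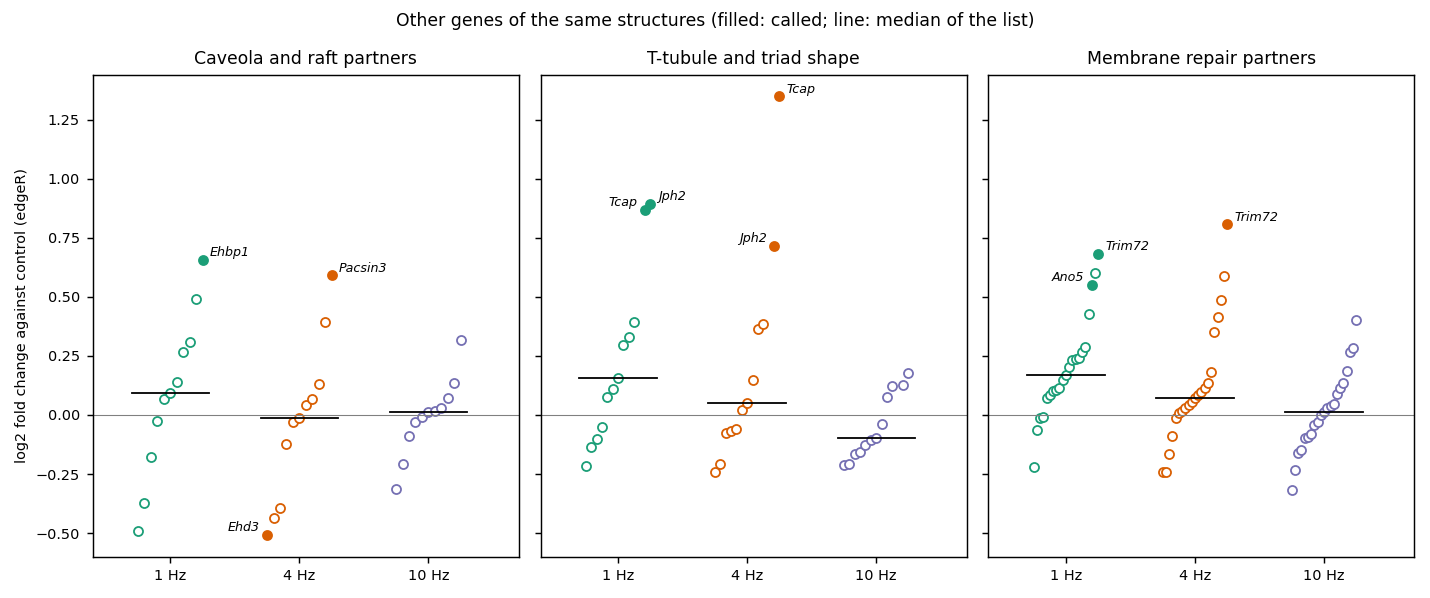
Log2 fold change against control (y axis, edgeR) of the genes tested in each of 3 lists (11, 13, and 21 genes, of which 1 in the T-tubule list is not drawn) at 1, 4, and 10 Hz (x axis, genes in order of value). Filled and named points were called, and the black line is the list median. No point is filled at 10 Hz, and Tcap at 4 Hz is the highest at 1.35.

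Across the 24 libraries, the tested genes whose log2 CPM followed each member most closely were found among 9285 genes with a mean of at least 10 CPM. Cav3 was followed by Adprhl1 (r = 0.965), Pgam2 (r = 0.963), and Trim72 (r = 0.959). Cavin2 was followed by Klhl13 (r = 0.928), Mat2a (r = 0.8895), and Trim55 (r = 0.882), and Cavin4 by Trim55 (r = 0.934), Eif4e2 (r = 0.903), and Myog (r = 0.898). Cavin1 was followed by Sun2 (r = 0.826), Tom1 (r = 0.825), and Wfs1 (r = 0.810), and Bin1 by Sun2 (r = 0.950), Myo18a (r = 0.933), and Ppfia4 (r = 0.9255). Dysf was followed by Myo18b (r = 0.955), Kif1c (r = 0.950), and Myo18a (r = 0.938), and Myof by Thbs2 (r = 0.926), Atp2b4 (r = 0.912), and Plau (r = 0.901). Cav1 was followed by Ube3c (r = 0.934), Osmr (r = 0.925), and Ankrd28 (r = 0.918), Cav2 by Ell2 (r = 0.903), Fundc1 (r = 0.891), and Ola1 (r = 0.874), and Mtm1 by Btbd1 (r = 0.865), Phf10 (r = 0.841), and E2f3 (r = 0.834). These are Pearson correlations over 24 libraries that share 4 conditions and their depth and composition, the highest of many, and are given as a description. With the condition means subtracted they were 0.627 to 0.914, for example 0.867 for Cav3 and Trim72.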

How the data were processed

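RNA was sequenced from 24 tissues, 6 per condition, with groups taken from the sample titles. The authors quantified reads with salmon in nf-core/rnaseq on GRCm39 (the sources used here name no Ensembl release) and deposited, per gene, salmon's estimated counts without normalization (6.62 to 10.6% of values per library not whole) and TPM. The labels also name STAR, BWA 0.7.12-r1039, and bedtools 2.25.0 without a role.

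Counts were rounded. Genes passing edgeR's filterByExpr by condition (13318, holding 99.8% of counts) were scaled by TMM and tested by quasi-likelihood (edgeR 4.0.16, limma 3.58.1, R 4.3.3) in 1 fit of 24 libraries with condition as the only factor. Adjusted p-values are Benjamini-Hochberg over all genes tested. CPM of members use TMM-scaled library sizes. Depths of 4085578 to 15194554 counts set the counting error, and SDs are between libraries. No 2 libraries of a condition were copies (60 pairs, lowest chi-square per gene 3.31).

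The members, related lists, and marker lists were chosen with earlier results of these data known. All members are named, with from each related list up to 3 called genes with the largest change in each direction against control, and the 3 genes with the highest correlation to each member (prior count 2 for log2 CPM). The small RNA list had 20 of 23 symbols in the table. Marker lists covered myotubes, reserve cells, proliferating cells, adipocytes, endothelium, and fibroblasts. Promoters and positions came from GRCm39 with GENCODE M39, whose release may differ from the authors'. The code was tested on simulated data.

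Alternatives were DESeq2 size factors, total-count scaling, no filter or a mean of at least 5 CPM, DESeq2 1.42.0 without and with apeglm 1.24.0, limma on log2(TPM + 1) and log2(TPM + 0.1) (mean TPM of at least 1, or no filter), a block on replicate number, a fit of just the 12 libraries of a comparison, a small RNA covariate, adjusted p alone, and each library left out. Protein-coding genes only was added after the data were seen, as was the transcript length check. The channelrhodopsin transgene was not analysed here, and 1 gene of the T-tubule list enters the counts and medians but is not reported by name.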

Additional observations from a re-analysis of the deposited data

Results flagged for a closer look

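Of 40 groups of 6 libraries (10 members in 4 conditions), 4 held a library whose gap to its nearest neighbor exceeded Dixon's critical value as a share of the group's range, and chance flags about 1 in 20 groups. Cav3 in control replicate 4 was 55.9 CPM (the other controls 32.9 to 40.2 CPM, ratio 0.681). Bin1 in the same library was 726 CPM (the others 552 to 611 CPM, ratio 0.663), and this library had the highest summed myotube markers of the controls at 9220 TPM. Cavin2 in control replicate 6 was 135 CPM (the others 88.1 to 104.5 CPM, ratio 0.648). Myof in 4 Hz replicate 1 was 92.8 CPM (the others 106 to 111 CPM, ratio 0.765), which moves it away from control. The part of library composition in these values was not tested.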

How the results depend on the processing

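Members called as higher stayed on that side of 0 in every alternative, as did those called as lower, but several calls depended on the settings, and the cause was not tested unless stated. With total-count scaling the median of all genes moved to -0.08 at 1 Hz and -0.11 at 4 Hz (-0.01 with TMM for both, calls over all genes 942 higher and 1595 lower in place of 1244 and 1197, and 1012 higher and 1821 lower in place of 1396 and 1280), and 1 member was called at 1 Hz (Cav3). With the small RNA covariate 0 were called at 1 Hz, 0 at 4 Hz, 0 for 10 against 1 Hz (2 at an unadjusted p below 0.05), and 0 for 10 against 4 Hz (0 at an unadjusted p below 0.05), in edgeR. By adjusted p alone, which drops the fold threshold, 7 members were called at 1 Hz and 8 at 4 Hz. This setting called 3 for 10 against 1 Hz and 5 for 10 against 4 Hz. Over all 13318 genes it called 2414 higher and 2306 lower at 1 Hz, and 2558 higher and 2693 lower at 4 Hz. For 10 against 1 Hz it called 2359 higher and 2470 lower, and for 10 against 4 Hz 1458 higher and 1579 lower. On the 3 limma TPM scales, where fold changes of log2(TPM + pseudocount) understate low genes and the median of all genes was -0.16 to -0.18 at 4 Hz with the filter (671 higher and 2064 lower with pseudocount 1), 3 members were called at 4 Hz (Cav3, Cavin2, and Myof), 1 at 10 Hz (Cavin2), and 1 for 4 against 1 Hz (Cav1), and for 10 against 4 Hz Cav1 was gained and Mtm1 lost on all 3, with 1 called without the filter (Cav1, while Cav3 was lost there). Only the 12 libraries compared gave 1 for 10 against 4 Hz (Cav3), as did apeglm (Cav3), and lost Cav3 at 10 Hz. Leaving out libraries gave 2 to 4 members at 1 Hz, 4 to 6 at 4 Hz, 2 to 3 at 10 Hz, 0 for 4 against 1 Hz, 1 for 10 against 1 Hz, and 0 to 3 for 10 against 4 Hz (0 without 10 Hz replicate 2). Protein-coding genes only left the calls against control at 3, 5, and 3 members.

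As TPM the mean over control was 1.94 for Cav1 at 1 Hz and, at 4 Hz, 0.961 for Cavin1, 1.34 for Cavin4, 1.05 for Bin1, 1.15 for Dysf, and 0.551 for Myof, a move of more than 1 SD from the CPM value.

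Some uncalled log2 values changed sign, the farthest from 0 being Cav3 for 10 against 1 Hz (-0.28) and Myof at 1 Hz (-0.27). With the small RNA covariate these were Myof at 1 Hz (0.058), Cavin1 at 4 Hz (-0.070), Cav3 (0.12), Cavin1 (0.015), and Myof (-0.18) for 10 against 1 Hz, and Cavin2 (0.077), Cavin4 (0.11), and Bin1 (0.071) for 10 against 4 Hz. With limma they were Cavin1 at 4 Hz (-0.0548, -0.0551, and -0.0548), Cav2 at 10 Hz (-0.0777, -0.0815, and -0.0777), and for 10 against 4 Hz Cavin2 (0.0655, 0.0663, and 0.0655) and Cavin4 (0.0242 on all 3 scales). With total-count scaling they were Cav2 at 10 Hz (-0.0022) and, for 10 against 4 Hz, Cavin2 (0.048) and Cavin4 (0.020), and with no filter Cavin1 for 10 against 4 Hz (-0.0068). With libraries left out, values spanned 0 for Cav2 (-0.057 to 0.13), Mtm1 (-0.14 to 0.031), and Myof (-0.27 to 0.023) at 10 Hz, Myof for 10 against 1 Hz (-0.00019 to 0.17), and Cavin1 (-0.019 to 0.040), Cavin2 (-0.069 to 0.039), and Cavin4 (-0.10 to 0.043) for 10 against 4 Hz.

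Same-numbered libraries deviated together weakly at most (lowest correlation of deviations per number -0.18 to 0.0054, mean -0.003 to 0.12). For number 3 every pair was above 0 (lowest 0.0054, mean 0.12). The labels do not say whether the numbers pair the tissues, and such weak correlations cannot decide it. With the replicate number as a block, members called were 3 at 1 Hz, 4 at 4 Hz (Mtm1 lost, at 0.49), 3 at 10 Hz, 0 for 4 against 1 Hz, 1 for 10 against 1 Hz, and 2 for 10 against 4 Hz. Depth limits Mtm1 most, with 52 to 257 counts per library.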
